A study of Mus musculus with 6 samples.

Results

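Interferon-stimulated genes were examined in whole pancreas of Prox1-OE and control mice. The 34 genes were chosen by name, as members of the antiviral, signalling and GTPase families that interferons induce, and were matched to the array by gene symbol. The choice was made with earlier results of these data known. Of the 34 genes 32 were measured by a probe set with a single symbol, out of 18194 genes on the array. Isg15 and Ifi44 were named by no such probe set and were not analysed here. Prox1-OE mice carried Jojo-Prox1 with Ngn3-cre, controls carried Ngn3-cre alone, and both were NMRI mice at postnatal day 15, with 3 arrays in each group. The transgene was thus switched on by a Cre that acts in endocrine progenitors, a small part of the tissue, and the control arm carried the same Cre. The labels do not state that the arrays of a group came from separate animals, so every p-value measures the spread between these samples, which may be technical. The values are log2 probe set summaries, and a difference of 1 is a doubling.

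Interferons are cytokines that put cells into an antiviral state. Type I interferons act through the receptor chains Ifnar1 and Ifnar2 and a transcription complex that holds Stat2 and Irf9, which binds the interferon-stimulated response element (ISRE). Interferon gamma acts through Ifngr1 and Ifngr2 and binding to gamma-activated sites (GAS), and it is the main inducer of the guanylate-binding proteins (Gbp genes) and the immunity-related GTPases (Igtp, Irgm1, Iigp1). In islets the same programme is known from virus infection and from autoimmune insulitis.

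Array correlations over all genes ran from 0.987 to 0.994, and the first principal component, with 34.6% of the variance, set Prox1-OE replicate 1 (-28.7) apart from the other arrays (-4.37 to 16.7). Prox1 read 5.30, 4.98 and 5.31 in Prox1-OE, against 5.61, 4.90 and 4.90 in control (difference 0.06 ± 0.20 SE, limma adjusted p = 0.971). Whether its probe set covers the transgene's transcript was not tested, so it checks no label. The acinar markers averaged 13.64 to 13.74 in Prox1-OE and 13.73 to 13.79 in control (10 of 12 measured), near the top of the scale. In whole tissue, a different number of cells of a type and a different amount of RNA per cell cannot be told apart.

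Promoter windows are shown because interferons are known to act on such genes through ISRE and GAS elements; a match describes letters and is not a bound site. RefSeq windows from 250 bases before to 50 bases after a start site (GRCm38.p6) were available for 25 of the 34 genes, in 31 windows. They were searched on both strands for the ISRE core (GAAA, any 2 bases, GAAA) and for GAS (TTC, any 3 bases, GAA). An ISRE core lay in the windows of 15 of the 25 genes (60.0%), against 3.99% of all 27025 genes with a window. A GAS lay in 7 of the 25 (28.0%), against 9.55% of all genes. Bst2, Igtp and Oas1a held both. Windows of 7 genes are printed below in lower case with the matches in capitals. The first 4 belong to genes whose values did not overlap between the genotypes, Igtp is a GTPase gene with both elements, and Rsad2 and Stat2 are genes whose differences were near 0. All 7 printed windows hold a match. Irf7, another gene without overlap, had a window with no match, and so had Gbp3 in its second window. Iigp1, Ifi27l2a and Usp18, also without overlap, had no window.
Gbp2 (chr3:142620413-142620712, + strand): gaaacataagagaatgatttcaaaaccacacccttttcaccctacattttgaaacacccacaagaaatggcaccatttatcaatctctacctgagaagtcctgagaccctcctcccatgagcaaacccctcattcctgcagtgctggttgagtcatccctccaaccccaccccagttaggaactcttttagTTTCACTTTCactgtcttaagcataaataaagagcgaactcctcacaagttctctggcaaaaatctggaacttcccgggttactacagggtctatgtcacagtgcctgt
Gbp3 (chr3:142559794-142560093, + strand): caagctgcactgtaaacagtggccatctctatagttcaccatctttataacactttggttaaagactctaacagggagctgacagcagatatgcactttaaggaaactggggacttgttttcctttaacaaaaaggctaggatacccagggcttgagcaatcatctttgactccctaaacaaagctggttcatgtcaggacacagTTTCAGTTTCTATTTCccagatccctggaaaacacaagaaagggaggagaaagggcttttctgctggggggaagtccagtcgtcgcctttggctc
Bst2 (chr8:71537423-71537722, - strand): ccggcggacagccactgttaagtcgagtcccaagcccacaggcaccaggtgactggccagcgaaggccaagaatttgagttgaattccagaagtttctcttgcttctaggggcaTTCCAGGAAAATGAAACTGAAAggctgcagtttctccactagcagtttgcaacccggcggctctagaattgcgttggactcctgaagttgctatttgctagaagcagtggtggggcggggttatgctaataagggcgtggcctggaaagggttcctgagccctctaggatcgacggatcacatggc
Ifit1 (chr19:34640639-34640938, + strand): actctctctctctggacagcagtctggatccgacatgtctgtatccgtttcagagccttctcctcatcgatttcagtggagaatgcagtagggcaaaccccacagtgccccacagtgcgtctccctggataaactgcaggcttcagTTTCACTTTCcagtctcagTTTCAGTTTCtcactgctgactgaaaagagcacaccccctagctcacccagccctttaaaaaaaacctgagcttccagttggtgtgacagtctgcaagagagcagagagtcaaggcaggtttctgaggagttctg
Igtp (chr11:58199306-58199605, + strand): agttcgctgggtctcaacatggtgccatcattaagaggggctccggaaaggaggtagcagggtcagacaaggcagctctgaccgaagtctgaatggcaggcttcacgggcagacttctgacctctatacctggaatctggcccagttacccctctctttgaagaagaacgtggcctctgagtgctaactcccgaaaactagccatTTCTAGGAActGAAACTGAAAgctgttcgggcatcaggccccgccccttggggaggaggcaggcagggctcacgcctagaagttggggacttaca
Rsad2 (chr12:26456403-26456702, - strand): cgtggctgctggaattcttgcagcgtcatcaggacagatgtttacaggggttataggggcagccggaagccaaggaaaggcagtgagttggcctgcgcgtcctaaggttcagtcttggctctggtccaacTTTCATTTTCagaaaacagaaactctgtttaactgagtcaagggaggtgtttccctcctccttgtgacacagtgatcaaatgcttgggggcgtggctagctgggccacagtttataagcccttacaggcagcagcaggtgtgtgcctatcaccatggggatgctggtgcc
Stat2 (chr10:128270248-128270547, + strand): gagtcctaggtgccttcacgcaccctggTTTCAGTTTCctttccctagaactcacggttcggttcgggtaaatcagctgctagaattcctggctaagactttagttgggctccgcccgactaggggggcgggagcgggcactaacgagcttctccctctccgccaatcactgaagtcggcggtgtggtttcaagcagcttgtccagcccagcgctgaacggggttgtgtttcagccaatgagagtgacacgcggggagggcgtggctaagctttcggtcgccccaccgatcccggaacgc

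Each window reads 5′ to 3′ along the gene's own strand. Gbp2 held 1 ISRE core, from -59 to -50 relative to the start site, and Gbp3 held 2 that overlapped, from -45 to -36 and from -39 to -30. In Bst2 a GAS (-136 to -128) overlapped the first of 2 overlapping ISRE cores (-130 to -121 and -124 to -115), which is why its capitals run together. Ifit1 held 2 separate cores, at -104 to -95 and -85 to -76. In Igtp the GAS (-45 to -37) stood just before the core (-34 to -25). Rsad2 held its core at -120 to -111 and Stat2 at -222 to -213. The measured members with an ISRE core in a window had a median log2 difference of 0.25 (n = 14), and those with a window and no core 0.12 (n = 9). Both kinds included members near 0.

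**Figure D1:**
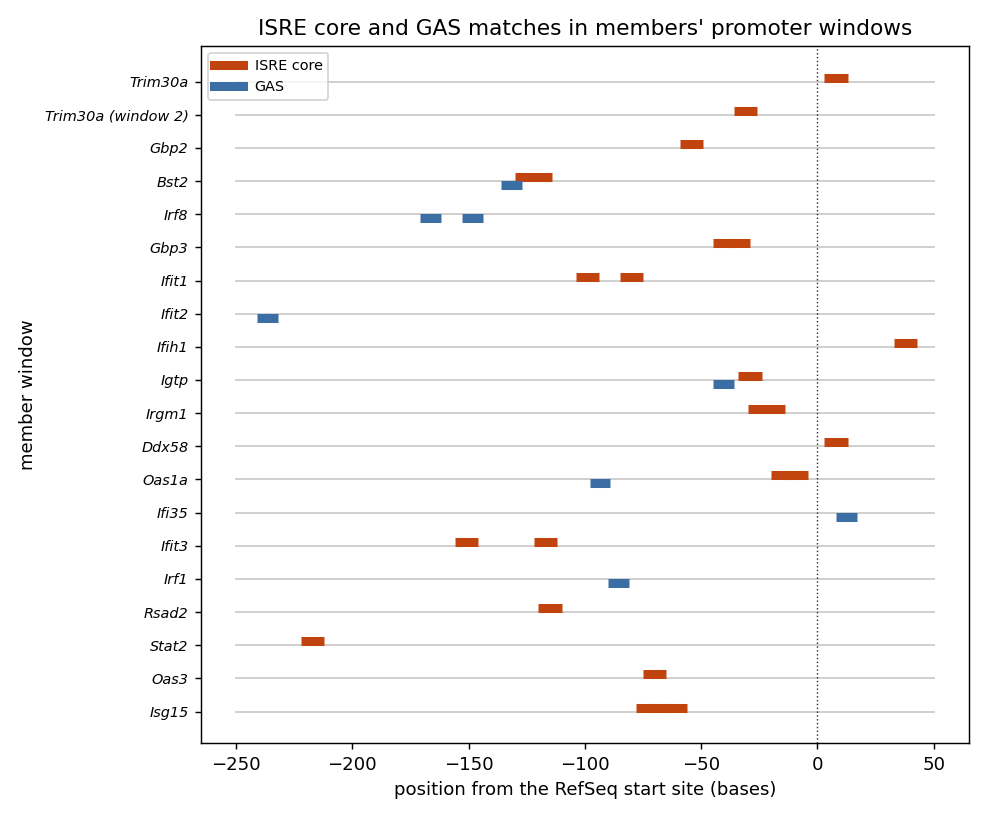
Positions of ISRE core (orange) and GAS (blue) matches, in bases from the RefSeq start site, in the windows of members that held at least 1 match; rows run from the member with the highest log2 difference down, with Isg15, not measured, last. Most ISRE cores lie shortly before the start site; that of Stat2 lies farthest away, and those of Ddx58, Ifih1 and 1 window of Trim30a lie after it.

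As a group the members read higher in Prox1-OE pancreas, without any of them passing the test. The list was chosen with earlier results of these data known, so its counts describe the members and test nothing. Of the 32 members, 29 had a positive log2 difference and 3 a negative one, where 46.2% of all genes were positive. The median difference was 0.15 over the members and -0.01 over all genes. None of the members passed an adjusted p of 0.05 in limma over all 18194 genes, and 0.0275% of all genes did. At an unadjusted limma p under 0.05, 8 members were higher and 0 lower. Of all 18194 genes, 2.94% were higher at that limit, and 674 genes were lower. The 3 Prox1-OE arrays all lay above the 3 control arrays for 8 members (Bst2, Gbp2, Iigp1, Ifi27l2a, Gbp3, Ifit1, Usp18 and Irf7), and this held for 5.05% of all genes. No member had all Prox1-OE arrays below the controls, and 1278 of all 18194 genes did. Bst2 had the smallest p of any member, 0.000155 unadjusted in limma. On the array 7 genes had a smaller one. The largest unadjusted p that passed the adjusted threshold was 1.22e-05.

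**Figure D2:**
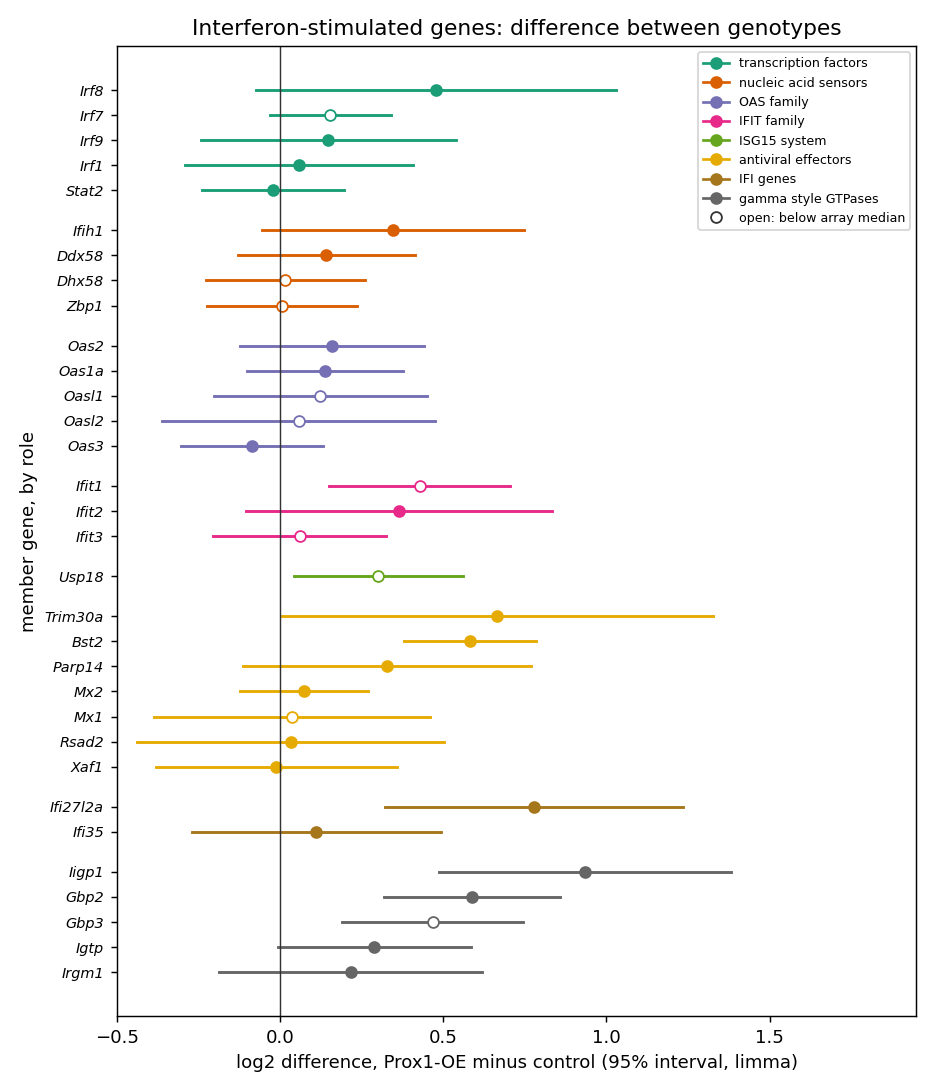
Log2 difference of each member (Prox1-OE minus control) with its 95% interval from limma, grouped by role; filled points lie above and open points below the median of the arrays. The interval lies above 0 for 8 members, among them Iigp1, Gbp2 and Gbp3 of the GTPases, and spans 0 for the OAS family, the nucleic acid sensors and Stat2.

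The median of an array, 4.40 on average, served to split brighter from dimmer members, and is not a limit of detection. The 22 members above it had a median difference of 0.19, against 0.00 for the 11446 genes above it, and 19 of them were positive. The 10 members below it had a median of 0.09, against -0.03 for the 6748 genes below it, and all 10 were positive. Without Prox1-OE replicate 2 the medians were 0.33 for the members above it, 0.20 for those below it and 0.26 for all 32. With macrophage markers as a covariate, the median of the members above it was 0.04.

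All 5 gamma style GTPases were higher in Prox1-OE, by 0.22 to 0.93, with a median of 0.47. The median was 0.29 with probe sets specific to 1 transcript preferred, and 0.21 with macrophage markers as a covariate. The 25 type I style members, which leave out these GTPases and the transcription factors Irf1 and Irf8, had a median of 0.14 (0.14 for the 16 above the array median). The difference between both groups was not tested. The median deviation of the GTPases from their control means was 0.58, 0.24 and 0.54 on Prox1-OE replicates 1, 2 and 3, against -0.16 to 0.10 on the control arrays. For the type I style members it was 0.14, 0.04 and 0.17 on Prox1-OE replicates 1, 2 and 3, against -0.02 to 0.03 on the control arrays. In both groups Prox1-OE replicate 2 was the lowest of its genotype.

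Iigp1, an immunity-related GTPase that acts on the vacuoles of intracellular parasites, had the largest difference of any member. It read 6.73, 6.22 and 6.91 in Prox1-OE, against 5.53, 5.98 and 5.55 in control, and the groups did not overlap. It averaged 6.62 ± 0.36 in Prox1-OE and 5.69 ± 0.26 in control (SD, n = 3 each), a 1.91-fold level (difference 0.93 ± 0.19 SE, limma adjusted p = 0.685). Its second and dimmer probe set differed by 0.15 ± 0.17 (SE), and its groups overlapped, so the 2 probe sets of this gene disagreed in size. Gbp2, a guanylate-binding protein that coats pathogen membranes, read 6.38, 6.31 and 6.62 in Prox1-OE, against 5.69, 5.95 and 5.91 in control. Every Prox1-OE array again lay above every control (difference 0.59 ± 0.12 SE, limma adjusted p = 0.657). The brightest probe set of Gbp2 is of a kind that can bind related transcripts. Its other probe set, which is not, differed by 0.45 ± 0.12 (SE), also without overlap.

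Gbp3, of the same family, was dimmer and lay below the array median. Its values were 4.38, 4.0 and 4.30 in Prox1-OE, against 3.88, 3.73 and 3.66 in control (difference 0.47 ± 0.12 SE, limma adjusted p = 0.690). The 3 GTPase genes with separate groups thus included both Gbp members. Igtp, which guards host membranes against the effector GTPases, read 7.05, 6.78 and 6.90 in Prox1-OE, against 6.45, 6.86 and 6.56 in control (difference 0.29 ± 0.13 SE, limma adjusted p = 0.753). Control replicate 2 lay above Prox1-OE replicate 2, so the groups overlapped. Irgm1, a regulator of the same machinery, read 6.79, 6.03 and 6.46 in Prox1-OE, against 6.28, 6.24 and 6.10 in control (difference 0.22 ± 0.18 SE, limma adjusted p = 0.832). Its excess came from Prox1-OE replicates 1 and 3, while replicate 2 was below every control.

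Among the transcription factors, those that carry the type I signal lay close to their controls. Stat2 read 5.42, 5.39 and 5.35 in Prox1-OE, against 5.54, 5.41 and 5.28 in control, with overlapping groups (difference -0.02 ± 0.09 SE, 95% interval -0.24 to 0.20, limma adjusted p = 0.978). Irf9, its DNA-binding partner, read 6.38, 5.70 and 5.96 in Prox1-OE, against 5.82, 6.04 and 5.73 in control (difference 0.15 ± 0.17 SE, limma adjusted p = 0.888). Prox1-OE replicate 1 alone exceeded the controls. Irf1, induced by interferon gamma, read 6.88, 6.31 and 6.62 in Prox1-OE, against 6.63, 6.64 and 6.37 in control (difference 0.06 ± 0.15 SE, limma adjusted p = 0.960). It was highest on Prox1-OE replicate 1 and lowest on Prox1-OE replicate 2.

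Irf7, which amplifies the type I response, lay below the array median and was nearly constant within each genotype. It read 3.78, 3.79 and 3.78 in Prox1-OE, against 3.66, 3.57 and 3.66 in control (difference 0.15 ± 0.08 SE, limma adjusted p = 0.771), with no overlap but a very small step. Irf8, a factor of myeloid cells and B cells as much as of the interferon gamma response, read 5.94, 4.83 and 5.31 in Prox1-OE, against 4.81, 4.87 and 4.96 in control (difference 0.48 ± 0.24 SE, limma adjusted p = 0.766). Prox1-OE replicate 1 stood well above all others, and replicate 2 lay among the controls. The second, dimmer probe set of Irf8 differed by 1.06 ± 0.32 (SE) with no overlap.

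None of the 4 nucleic acid sensors had separate groups. Ifih1, which detects long double-stranded RNA (MDA5), read 5.86, 5.67 and 5.73 in Prox1-OE, against 5.73, 5.49 and 5.0 in control (difference 0.35 ± 0.17 SE, limma adjusted p = 0.766). Control replicate 3 was low and control replicate 1 reached the Prox1-OE values. Ddx58, the RNA sensor RIG-I, read 5.92, 5.83 and 6.02 in Prox1-OE, against 5.85, 5.56 and 5.94 in control (difference 0.14 ± 0.12 SE, limma adjusted p = 0.838), with overlapping groups. Its probe sets differed by 0.14, 0.16 and -0.03. Dhx58, a regulator of both, and Zbp1, a sensor of Z-form nucleic acids, lay below the array median and differed by 0.02 ± 0.11 and 0.01 ± 0.10 (SE). Their 95% intervals were -0.23 to 0.26 and -0.22 to 0.24. The other probe sets of Dhx58 differed by -0.28 and 0.10.

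The OAS enzymes make oligoadenylates that activate an RNA-degrading enzyme. Of the 5 members of this family, OAS-like genes included, 4 had a positive difference, none with separate groups. Oas1a read 5.36, 5.50 and 5.44 in Prox1-OE, against 5.13, 5.33 and 5.43 in control (difference 0.14 ± 0.10 SE, limma adjusted p = 0.825), and Oas2 read 5.38, 5.57 and 5.68 in Prox1-OE, against 5.18, 5.53 and 5.44 in control (difference 0.16 ± 0.12 SE, limma adjusted p = 0.828). In both genes control replicate 1 was the lowest array. Oas3 read 4.42, 4.38 and 4.46 in Prox1-OE, against 4.54, 4.37 and 4.61 in control (difference -0.09 ± 0.09 SE, limma adjusted p = 0.884), the most negative difference of the 32. Oasl1 and Oasl2, related OAS-like proteins, lay below the array median and differed by 0.12 ± 0.14 and 0.06 ± 0.18 (SE).

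The IFIT family, which binds foreign RNA, was uneven. Ifit1 read 3.32, 3.75 and 3.50 in Prox1-OE, against 3.03, 3.18 and 3.07 in control and had separate groups (difference 0.43 ± 0.12 SE, limma adjusted p = 0.690). All of these values lay below the array median. Its highest array was Prox1-OE replicate 2, the array on which most other members were lowest in that genotype. Ifit2 read 5.47, 4.66 and 4.69 in Prox1-OE, against 4.57, 4.48 and 4.68 in control (difference 0.36 ± 0.20 SE, limma adjusted p = 0.777), and only Prox1-OE replicate 1 stood out. Ifit3 differed by 0.06 ± 0.12 (SE, 95% interval -0.20 to 0.32), below the array median. Usp18, the protease that removes Isg15 from proteins and damps type I signalling, also lay below the array median. It read 3.63, 3.25 and 3.44 in Prox1-OE, against 3.17, 3.18 and 3.05 in control, without overlap (difference 0.30 ± 0.11 SE, limma adjusted p = 0.712).

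Bst2, the membrane protein tetherin that holds budding virus particles on cells, was above the controls by a similar amount on all 3 Prox1-OE arrays. It read 6.63, 6.62 and 6.46 in Prox1-OE, against 6.03, 5.96 and 5.97 in control, and averaged 6.57 ± 0.09 in Prox1-OE and 5.99 ± 0.04 in control (SD, n = 3 each). The gap between the groups was larger than the range within either (difference 0.58 ± 0.09 SE, 1.5-fold, limma adjusted p = 0.316). Ifi27l2a, a small interferon-induced protein, read 5.80, 5.03 and 5.69 in Prox1-OE, against 4.71, 4.56 and 4.92 in control (difference 0.78 ± 0.20 SE, 1.71-fold, limma adjusted p = 0.690). Its groups did not overlap, although Prox1-OE replicate 2 lay close to control replicate 3. Trim30a, a TRIM protein of immune cells, read 6.44, 5.27 and 5.96 in Prox1-OE, against 5.59, 5.17 and 4.90 in control (difference 0.67 ± 0.29 SE, limma adjusted p = 0.748). Prox1-OE replicate 2 was lower than control replicate 1, so the groups overlapped.

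Parp14, an ADP-ribosyltransferase, read 5.76, 5.13 and 5.69 in Prox1-OE, against 4.91, 5.41 and 5.27 in control (difference 0.33 ± 0.19 SE, limma adjusted p = 0.781). Prox1-OE replicates 1 and 3 exceeded all controls.  Rsad2 and Mx2, classic antiviral effectors, did not separate the genotypes. Rsad2, or viperin, read 7.36, 8.04 and 7.35 in Prox1-OE, against 7.65, 7.73 and 7.26 in control (difference 0.03 ± 0.20 SE, 95% interval -0.44 to 0.50, limma adjusted p = 0.986). Its probe sets differed in sign, as did those of Ddx58, Dhx58 and Ifi35, the 4 such genes among the 12 with more than 1 probe set. The probe sets of Rsad2 differed by 0.03, 0.15 and -0.10, and those of Ifi35 by 0.11, -0.05 and -0.03. Mx2, a dynamin-like GTPase, read 5.54, 5.50 and 5.62 in Prox1-OE, against 5.50, 5.52 and 5.42 in control (difference 0.07 ± 0.09 SE, 95% interval -0.12 to 0.27, limma adjusted p = 0.891), and hardly moved on any array.

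Ifi35, which binds the interferon-induced protein Nmi, read 8.20, 7.62 and 7.61 in Prox1-OE, against 7.83, 7.70 and 7.57 in control (difference 0.11 ± 0.17 SE, limma adjusted p = 0.923), and Prox1-OE replicate 1 alone was above the controls. Xaf1, a pro-apoptotic gene, read 4.60, 4.55 and 5.10 in Prox1-OE, against 4.93, 4.76 and 4.59 in control (difference -0.01 ± 0.16 SE, limma adjusted p = 0.994). Mx1, below the array median, differed by 0.04 ± 0.18 (SE, 95% interval -0.39 to 0.46). Over all 48 probe sets of the 32 members, 38 had a positive difference, and the smallest limma adjusted p among these 48, adjusted over all 45101 probe sets, was 0.587.

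**Figure D3:**
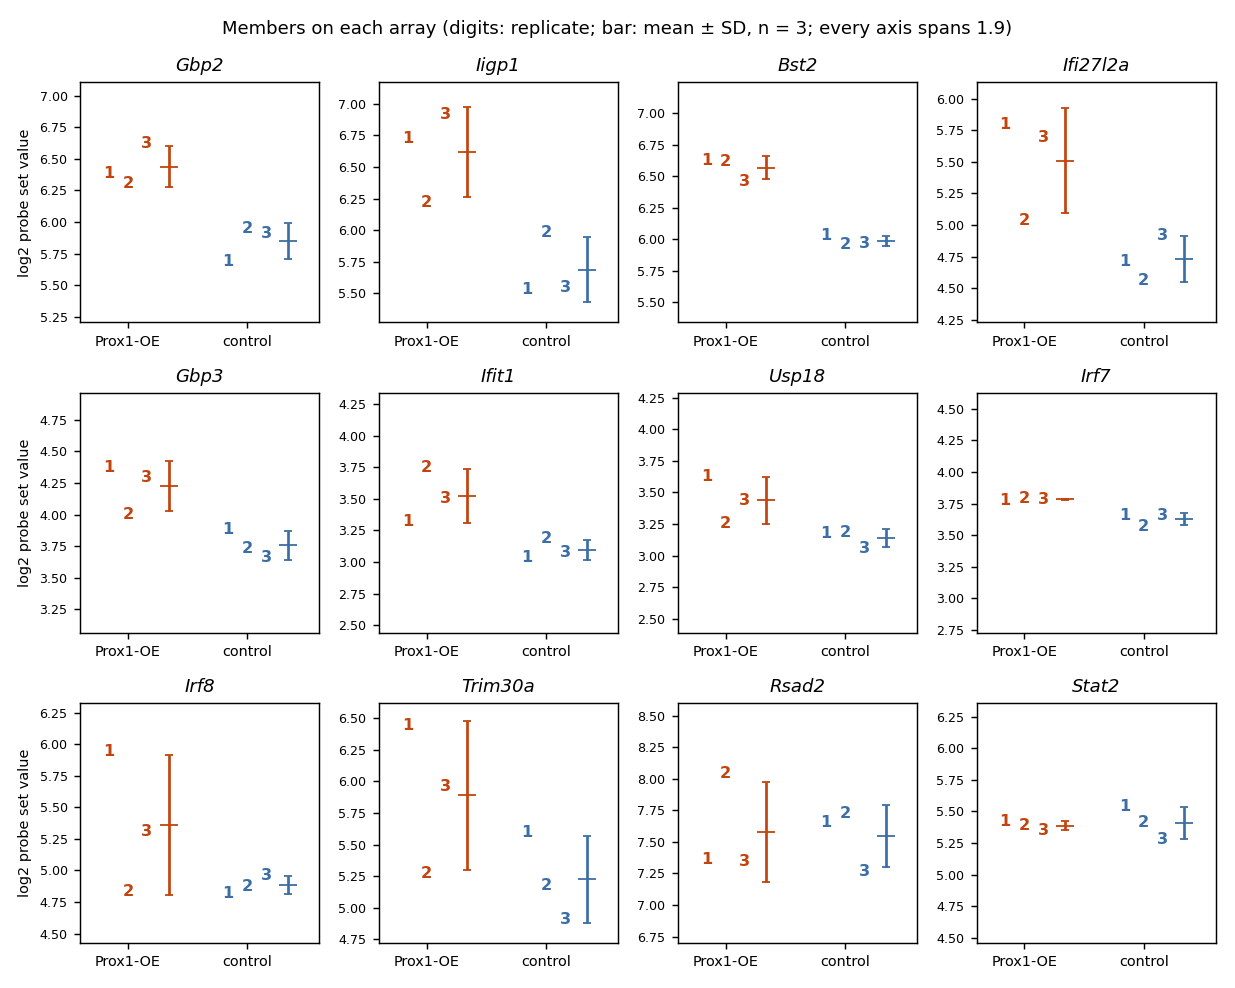
Log2 probe set values of 12 members on each array, with digits for the replicate and bars for mean ± SD (n = 3). The first 8 panels (Gbp2 to Irf7) hold the members whose groups did not overlap; in Irf8 and Trim30a replicate 2 of Prox1-OE falls among the controls, and Rsad2 and Stat2 overlap throughout.

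The members did not follow 1 pattern over the Prox1-OE arrays. Replicate 1 was the highest of the 3 for 16 members, replicate 3 for 11 and replicate 2 for 5. Over all genes these shares were 35.3%, 36.1% and 28.5%, so that replicate 3 held about its share among the members. Replicate 2 was the lowest for 21. The mean of the 32 members over control was 0.35, 0.10 and 0.30 on Prox1-OE replicates 1, 2 and 3. Marker lists of other cells, also given as means, differed between these arrays, not all in the same order. The mean of 16 macrophage markers over control was 1.07, 0.31 and 0.47 on Prox1-OE replicates 1, 2 and 3, against -0.14 to 0.08 on the control arrays. Their median was 0.94, 0.47 and 0.33, so by the median replicate 2 exceeded replicate 3. Of these markers 15 lay above the array median, 13 were higher in Prox1-OE and 9 were so at an unadjusted limma p under 0.05. Their mean level was 6.4 to 7.15 in Prox1-OE and 5.94 to 6.16 in control. The mean of 11 B cell and plasma cell markers over control was 1.25, 0.12 and 0.37 on Prox1-OE replicates 1, 2 and 3, against -0.02 to 0.03 on the control arrays. Their mean level was 4.33 to 5.46 in Prox1-OE and 4.19 to 4.24 in control, and 7 of the 11 lay below the array median. Of the 11, 8 were higher and 3 lower, from -0.10 (Pax5) to 2.26 (Ms4a1). Their median over control was 0.92, -0.02 and 0.19 on Prox1-OE replicates 1, 2 and 3.

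T and NK cell markers were at 0.56, -0.12 and 0.17 on Prox1-OE replicates 1, 2 and 3, against -0.04 to 0.02 on the control arrays, with 8 of 11 below the array median. Of the 11, 7 were positive and 4 negative. The mean of 7 plasmacytoid dendritic cell markers was at 0.19, -0.12 and 0.06 on Prox1-OE replicates 1, 2 and 3, against -0.09 to 0.08 on the control arrays. Of these 3 were positive and 4 negative, from -0.20 (Ccr9, lower without overlap) to 0.46 (Ly6d), and 4 of the 7 lay above the array median. Among these, Klk1 read 14.32 to 14.55 over all arrays, near the top of the scale like the acinar markers. Its values thus say little about these dendritic cells, although they enter the mean. Siglech, the defining marker of plasmacytoid dendritic cells, which make type I interferon and carry Bst2, read 5.12, 4.38 and 5.25 in Prox1-OE, against 5.0, 5.10 and 4.84 in control, with overlapping groups (difference -0.06 ± 0.21 SE, limma adjusted p = 0.974). Neutrophil markers (7 measured) were at 0.54, 0.18 and 0.05 on Prox1-OE replicates 1, 2 and 3, against -0.17 to 0.17 on the control arrays. Blood endothelial markers (9 measured) were at 0.33, -0.03 and 0.13 on the same arrays, against -0.34 to 0.22 on the control arrays. Beta cell markers ran the other way, at -0.52, -0.68 and -0.81 on Prox1-OE replicates 1, 2 and 3, against -0.25 to 0.27 on the control arrays. Irf8 and Bst2 are also made by B cells or dendritic cells outside any interferon response. The part of these cells in the members' values was not tested, and the fits below only describe how the values move with their markers.

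**Figure D4:**
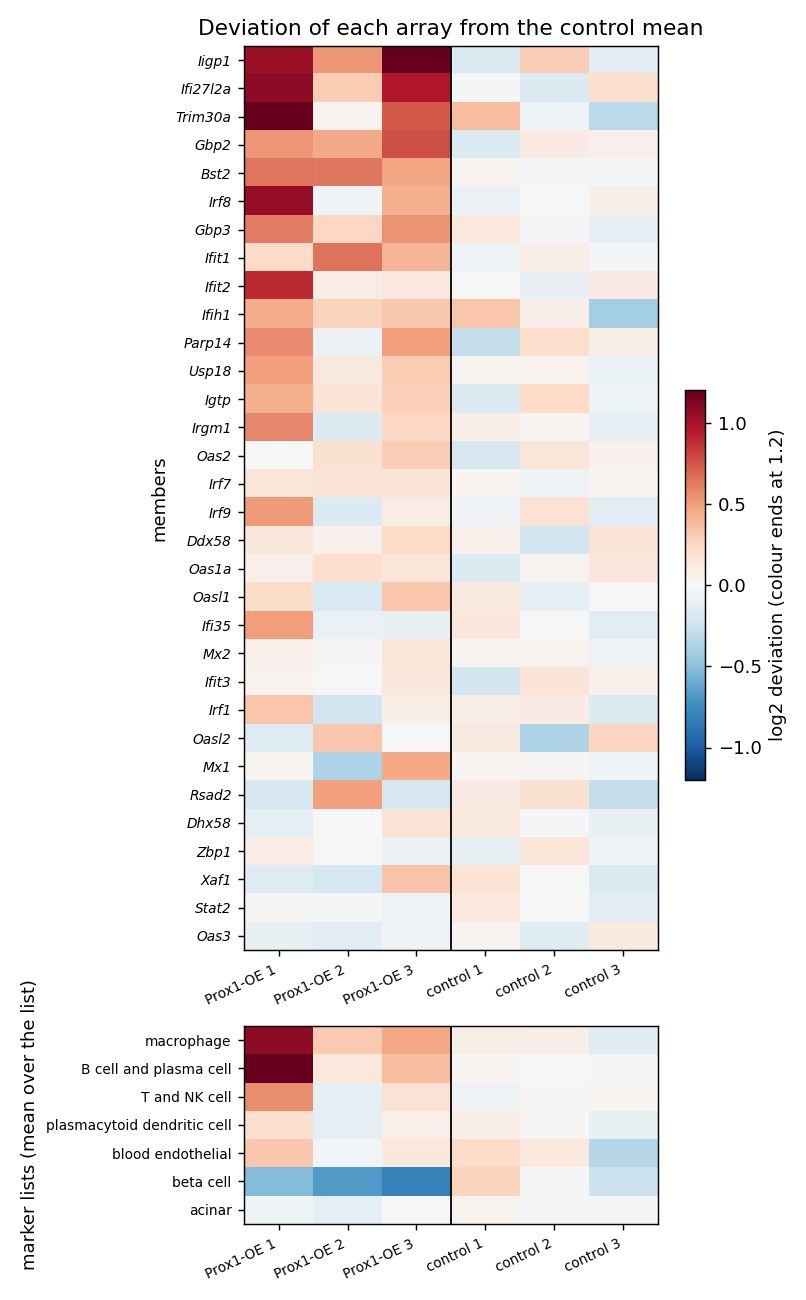
Deviation of each array from the control mean on the log2 scale, for the 32 members (top, ordered by difference) and the mean of each marker list (bottom), with Prox1-OE arrays left of the line. Bst2, Gbp2 and Iigp1 are warm on all 3 Prox1-OE arrays, while Irf8, Trim30a, Ifit2 and Irgm1 are warmest on Prox1-OE replicate 1. The macrophage, B cell, T and NK cell, plasmacytoid dendritic cell and blood endothelial lists are also warmest on that array.

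Leaving out Prox1-OE replicate 1 split the members. Without it, Bst2 differed by 0.55, Gbp2 by 0.62, Iigp1 by 0.88, Ifit1 by 0.53 and Ifi27l2a by 0.63. For Irf8 the difference without it was 0.19, for Ifit2 0.10, for Trim30a 0.39, for Irgm1 0.04, and Irf9, Irf1, Ifi35 and Zbp1 turned negative (-0.03, -0.08, -0.08 and -0.03), while Xaf1 turned positive (0.06). Without that array 26 members were positive and 10 had separate groups, which with 2 arrays against 3 held for 8.71% of all genes. Without Prox1-OE replicate 2, 16 members had separate groups, against 11.1% of all genes.

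Separate fits added, as a covariate, the mean level of either the macrophage or the B cell markers. With the macrophage list, 19 members were positive with a median difference of 0.06. At an unadjusted limma p under 0.05, 3 members were higher and 2 lower. Of all 18194 genes, 1.47% were higher at that limit, and 712 passed it in either direction. Gbp2 differed by 0.63, Ifit1 by 0.69, Iigp1 by 0.66 and Bst2 by 0.53, where they differed by 0.59, 0.43, 0.93 and 0.58 without a covariate. Ifi27l2a differed by 0.41 and Gbp3 by 0.21, both lower than without it. Trim30a (-0.20), Irf8 (-0.25), Ifit2 (-0.23), Irgm1 (-0.31), Irf9 (-0.37), Irf1 (-0.38), Ifi35 (-0.40), Zbp1 (-0.10), Mx1 (-0.07), Oasl1 (-0.055) and Parp14 (-0.0060) turned negative.

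With the B cell list, 21 members were positive, and Gbp2 (0.61), Bst2 (0.55), Ifit1 (0.62) and Iigp1 (0.78) were the 4 highest. No member passed the adjusted threshold in either fit. Both lists differ between the genotypes, so a covariate also takes up part of the genotype difference, and no fit tells which cells carried a transcript.

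**Figure D5:**
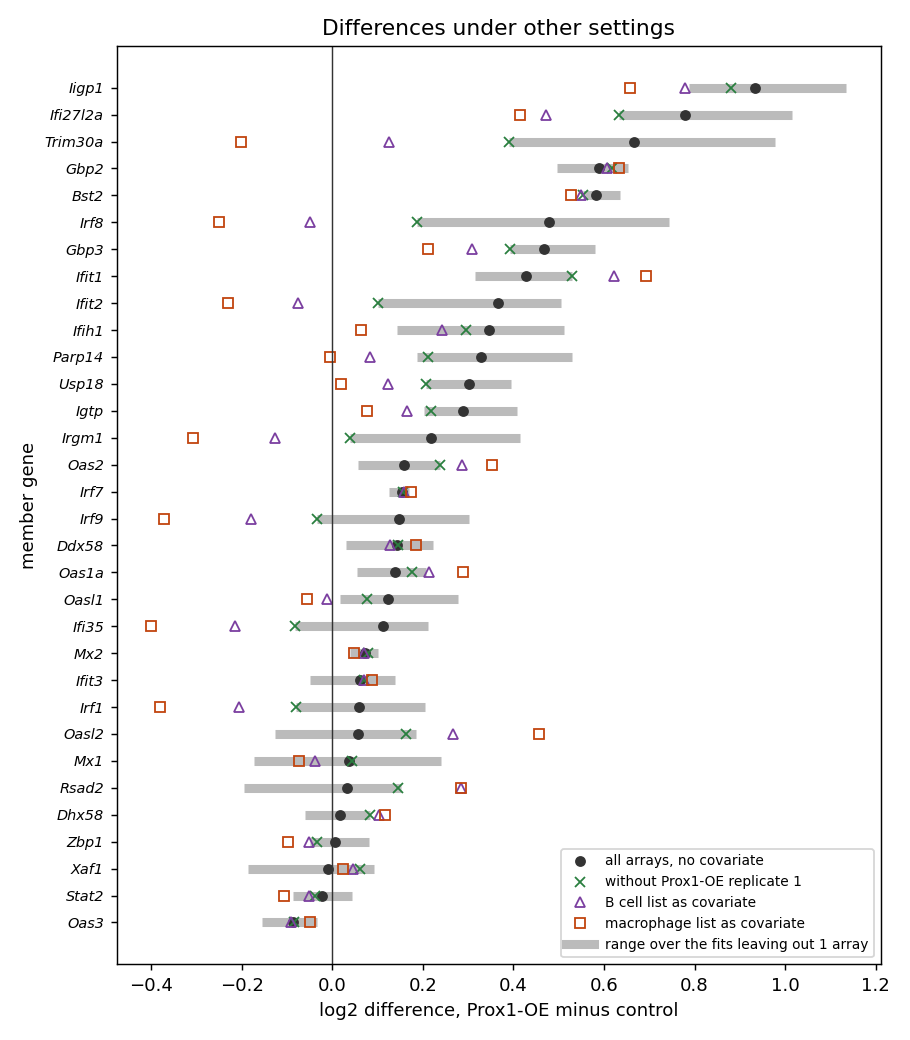
Log2 difference of each member with all arrays (dots), without Prox1-OE replicate 1 (crosses) and with the B cell (triangles) or macrophage (squares) list as a covariate; grey bars span the 6 fits that each left out 1 array. Gbp2, Bst2 and Irf7 keep all marks close together, and Trim30a, Irf8, Ifit2, Irgm1, Irf9, Irf1 and Ifi35 spread from positive to negative.

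The interferon genes themselves read low. Of 7 interferon genes measured (Ifna1, Ifna2, Ifna4, Ifna5, Ifna11, Ifnb1 and Ifng), 3 were positive and 4 negative, between -0.21 and 0.17. All but Ifna1 lay below the array median, with mean levels of 2.84 to 4.61 over the 7 genes, and none had separate groups.

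Of the 6 receptor genes 2 were positive and none passed the adjusted threshold. Ifngr1, the ligand-binding chain for interferon gamma, read 7.67, 7.35 and 7.39 in Prox1-OE, against 7.21, 6.93 and 7.02 in control, without overlap (difference 0.42 ± 0.12 SE, limma adjusted p = 0.690). The other receptor chains lay near 0, with Ifnar1 at -0.02 ± 0.11, Ifnar2 at -0.04 ± 0.11, Ifnlr1 at -0.02 ± 0.12, Il10rb at 0.12 ± 0.11 and Ifngr2 at -0.10 ± 0.17 (SE). Tyk2, a kinase of the type I receptor, read 5.15, 5.17 and 5.17 in Prox1-OE, against 5.81, 5.42 and 5.42 in control (difference -0.38 ± 0.12 SE, limma adjusted p = 0.690), lower on every Prox1-OE array. Jak1, Jak2 and Stat3 differed by 0.10 ± 0.12, 0.17 ± 0.11 and 0.25 ± 0.19 (SE).

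Of the 5 feedback inhibitors 4 were positive, led by Socs3 at 0.33 ± 0.17 (SE, limma adjusted p = 0.766), an inhibitor of Jak kinases. Socs1 differed by -0.16 ± 0.13, Ptpn6 by 0.09 ± 0.09 and Ptpn2 by 0.08 ± 0.10 (SE). Of the 11 sensing adaptors and upstream factors 7 were positive. Tbk1, the kinase that activates Irf3, differed by 0.24 ± 0.10, Cgas, the sensor of cytosolic DNA, by -0.31 ± 0.13, Myd88, an adaptor of Toll-like receptors, by 0.36 ± 0.17 and Tlr9, a receptor for microbial DNA, by 0.24 ± 0.13 (SE, limma adjusted p from 0.740 to 0.777).

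Other interferon-induced GTPases also read higher. Of 11 listed, 5 were measured, and 3 of these lay above the array median. All 5 were positive, from 0.10 to 0.94, with a median of 0.63 and none past the adjusted threshold. Gbp7 read 7.5, 6.52 and 7.24 in Prox1-OE, against 6.18, 6.24 and 6.0 in control, without overlap (difference 0.94 ± 0.23 SE, limma adjusted p = 0.690). Gbp8, below the array median, differed by 0.79 ± 0.25, Ifi47 by 0.63 ± 0.29 and Gbp6 by 0.27 ± 0.17 (SE). Prox1-OE replicate 1 was the highest array for Gbp7, Gbp8 and Ifi47. Of 22 other interferon-induced genes 18 were positive, with a median of 0.13 and none past the adjusted threshold. Epsti1 differed by 1.14 ± 0.47, and read 6.70, 4.60 and 5.12 in Prox1-OE, against 4.73, 4.24 and 4.03 in control, so that replicate 1 carried most of it. Nmi differed by 0.38 ± 0.14, Adar, an RNA editing enzyme, by -0.24 ± 0.12 and Ifitm3, which blocks virus entry, by 0.19 ± 0.10 (SE). Over all 60 measured genes of the pathway lists 42 were positive, with a median of 0.09.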

How the data were processed

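Gene expression in 6 whole-pancreas RNA samples was measured on Affymetrix 3′ expression arrays. The input was 100 ng of total RNA, amplified and biotin-labelled, per the labels' protocols. The authors deposited log2 probe set summaries, and the submitters' processing notes name RMA and Partek 6.5 without settings. RMA in its usual form gives arrays 1 distribution and so hides global shifts; array medians ran from 4.38 to 4.42.

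Of 45101 probe sets, 34958 had 1 gene symbol in the platform annotation (932 several, 9211 none), and 34754 matched RefSeq by gene identifier. The probe set with the highest mean stood for each of 18194 genes. Groups of 3 arrays by genotype were compared in limma 3.58.1 under R 4.3.3 (lmFit, then eBayes), two-sided, without covariate, with Benjamini-Hochberg adjustment over all genes at 0.05. The fit was tested on simulated data. Members and lists were chosen with earlier results of these data known. Values on every array are given for members above the array median, and for those below it with separate groups and an unadjusted p under 0.05; Irf7, whose p was larger, was added after its values were seen. Of each pathway list up to 4 genes with the smallest p were named, and all measured receptors and ligands. Promoter windows came from RefSeq GRCm38.p6. No array coordinates were used. Other settings were another choice of probe set, a filter on dim genes, other normalization, eBayes settings, weighting of arrays, a block for the replicate number, cell marker covariates, another threshold, and leaving out each array. The number of arrays limits the precision.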

Additional observations from a re-analysis of the deposited data

How the results depend on the processing

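The count of members past the adjusted threshold was 0 under all 16 alternatives of the fit and at a threshold of 0.1. Of 502 values of single members under the alternatives, 456 kept their direction and 46 turned, none of them past the threshold; 15 members never turned, among them Bst2, Gbp2, Gbp3, Iigp1, Ifi27l2a, Ifit1, Usp18 and Irf7. The count over all genes, 5, was 2 with the replicate number as a block (replicate block), 0 with either covariate and 0 to 4 without any 1 array. The deviations of same-numbered arrays correlated by 0.04, 0.14 and 0.11. Other pairs of arrays were not compared, so this cannot tell whether the replicate numbers pair the arrays. The replicate block left the members' count at 0. Members with separate groups numbered 4 in place of 8 when dim genes were left out, which removes 10 members. Of the 11446 genes above the array median, 693 had separate groups that were higher in Prox1-OE. Without any 1 array the count of members was 8 to 16, against 8.71% to 11.1% of all genes, since fewer arrays separate more easily. A fit's weights, block or covariate do not enter these counts. The median of the gamma style GTPases was 0.29 with probe sets specific to 1 transcript preferred, and 0.21 with the macrophage covariate. That preference replaces the probe sets of Iigp1 and Gbp2, and Gbp3 keeps its only one. The type I style median was 0.048 with that covariate and 0.12 to 0.19 without any 1 array, the median above the array median was 0.16 to 0.33, and that below it was 0.064 to 0.20. With the B cell covariate, turned values were Irf9 -0.18, Irf1 -0.21, Irf8 -0.049, Zbp1 -0.051, Oasl1 -0.012, Ifit2 -0.075, Mx1 -0.037, Xaf1 0.046, Ifi35 -0.22 and Irgm1 -0.13. With the macrophage covariate they were Irf9 -0.37, Irf1 -0.38, Irf8 -0.25, Zbp1 -0.099, Oasl1 -0.055, Ifit2 -0.23, Mx1 -0.073, Trim30a -0.20, Parp14 -0.0060, Xaf1 0.025, Ifi35 -0.40 and Irgm1 -0.31. Dhx58 was -0.056 by the mean of its probe sets, Ifi35 -0.052 with probe sets specific to 1 transcript, Zbp1 -0.013 with array weights, and Xaf1 0.0070 and 0.0081 with quantile normalization again and median centring. Without any 1 array the ranges that crossed 0 were Stat2 -0.086 to 0.042, Irf9 -0.034 to 0.30, Irf1 -0.079 to 0.21, Dhx58 -0.060 to 0.082, Zbp1 -0.049 to 0.081, Oasl2 -0.13 to 0.18, Ifit3 -0.050 to 0.14, Mx1 -0.17 to 0.24, Rsad2 -0.20 to 0.15, Xaf1 -0.19 to 0.091 and Ifi35 -0.083 to 0.21. The cause of these shifts was not tested. The median SE of a member was 0.14.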

Other observations

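Probe sets that the annotation gives to several interferon-induced genes at once entered no comparison, since their signal can be credited to no single gene. Of 11 such probe sets 9 were higher in Prox1-OE and 2 lower, with log2 differences from -0.10 to 0.90 and a median of 0.36, and the smallest limma adjusted p over all probe sets was 0.770. The lower ones were 1 of the 2 shared by interferon alpha genes (-0.10, against 0.05 for the other) and 1 of the 3 shared by Ifi203 and its relatives (-0.06, against 0.58 and 0.80 for the others). The one shared by Gbp8 and Gbp4 differed by 0.11, and 3 further ones are given on every array. The one shared by Isg15 and Gm9706 read 4.33, 5.21 and 4.65 in Prox1-OE, against 4.49, 4.83 and 4.42 in control (difference 0.16 ± 0.21 SE, limma adjusted p = 0.929 over all probe sets). As for Rsad2, Prox1-OE replicate 2 was its highest array. The one shared by the GTPase genes Tgtp1 and Tgtp2 read 6.22, 4.72 and 5.79 in Prox1-OE, against 4.45, 4.90 and 4.67 in control (difference 0.90 ± 0.33 SE, limma adjusted p = 0.774 over all probe sets). Prox1-OE replicate 2 lay among its controls. One shared by Mndal, Ifi211, Ifi205 and Ifi204, sensors of the interferon-inducible p200 family, read 7.27, 6.47 and 6.13 in Prox1-OE, against 6.12, 5.50 and 5.57 in control (difference 0.89 ± 0.28 SE, limma adjusted p = 0.770 over all probe sets).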
